A study of Saccharomyces cerevisiae with 6 samples.

Results

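Zinc-handling transcripts of budding yeast (Saccharomyces cerevisiae) are described after loss of the mitochondrial genome (mtDNA) and after repression of NAR1. The genes are the 7 reading frames of the array that carry the names ZRT1, ZRT2, ZRT3, ZAP1, ZRC1, COT1 and ADH4, out of 6198 with a value. They were picked by name and function and not by a cut on their values, though earlier results of these data were known. All 7 had a ratio in each of the 6 conditions.

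All cells grew in YEPD, a rich glucose medium. Wild-type (WT) cells of strain UCC1899 were freed of mtDNA by ethidium bromide, a DNA-binding dye, at 30 µg/ml for 6 h, and at 3, 11, 19 and 27 h afterwards they were set against UCC1899 cells that kept it. Strain UCC3980 carries ATP1-111 on both copies of ATP1, which encodes a catalytic-core subunit of the mitochondrial ATP synthase, and was treated in the same manner and set against its own cells with mtDNA at 27 h. Strain UCC3970 expresses NAR1, which serves the assembly of cytosolic iron-sulfur proteins, under control of estradiol. Its cells were shifted to 2 nM estradiol for 27 h, the control being the same strain in 50 nM. Each condition is a single deposited ratio per gene, treated over control, averaged by the authors over 6 arrays of the 2-colour kind, with 3 biological replicates per orientation of the dyes, except that 5 arrays (3 and 2) were averaged for ATP1-111. The NAR1 transcript itself stood at a ratio of 0.031 in the column labelled NAR1 repression.

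Yeast takes up zinc through plasma membrane transporters of the ZIP family and stores the surplus in the vacuole through transporters of the cation diffusion facilitator family. The transcription factor Zap1 senses zinc inside the cell. When zinc is scarce it switches on genes that include ZRT1 for uptake, ZRT3 for vacuolar export and its own gene. Another is ADH4, an alcohol dehydrogenase made in place of abundant zinc enzymes.

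No spread between replicates came with the averages, so single ratios carry no replicate error, and the number of arrays limits the precision. The closest measure of error in the table is the disagreement of the 13 genes that were spotted in duplicate, none of them a zinc gene, with a single-spot SD between 0.151 and 0.239 on the log2 scale. Tests came from one limma fit over all 6151 genes measured in every condition, two-sided and adjusted by Benjamini-Hochberg across the whole array, with a threshold of 0.05. Its standard errors (SE) rest on how far the 4 WT columns lay from a linear time trend, so ATP1-111 and NAR1 repression were tested as if they varied like those columns. The sources used here do not say whether the WT columns shared control RNA. The ratios do not compare the amount of one transcript with that of another. RNA came from whole cultures, so a large change in some cells and a smaller one in all of them cannot be told apart.

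The first question was what happened to the zinc genes as WT cells went on growing without mtDNA. ZRT1, the high-affinity zinc uptake transporter, had the highest ratio of the 7 at every time point and stood at 3.97 at 27 h. ZRT3, which releases zinc from the vacuole, and COT1, a vacuolar zinc and cobalt importer, stood at 1.72 and 2.12 at 27 h, and ADH4 at 0.673. The low-affinity uptake transporter ZRT2, the vacuolar importer ZRC1 and the regulator ZAP1 stayed between ratios of 0.823 and 1.13 throughout. None of the 7 passed the test of a straight-line change with time in limma, where 446 of all 6151 genes (7.25%) did. At an unadjusted p under 0.05 in limma, 4 of the 7 passed, as did 1855 of the 6151. By ordinary least squares 0 of the 7 and 0 of all genes passed after adjustment. Without adjustment 1 of the 7 and 1140 of the 6151 did.

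**Figure D1:**
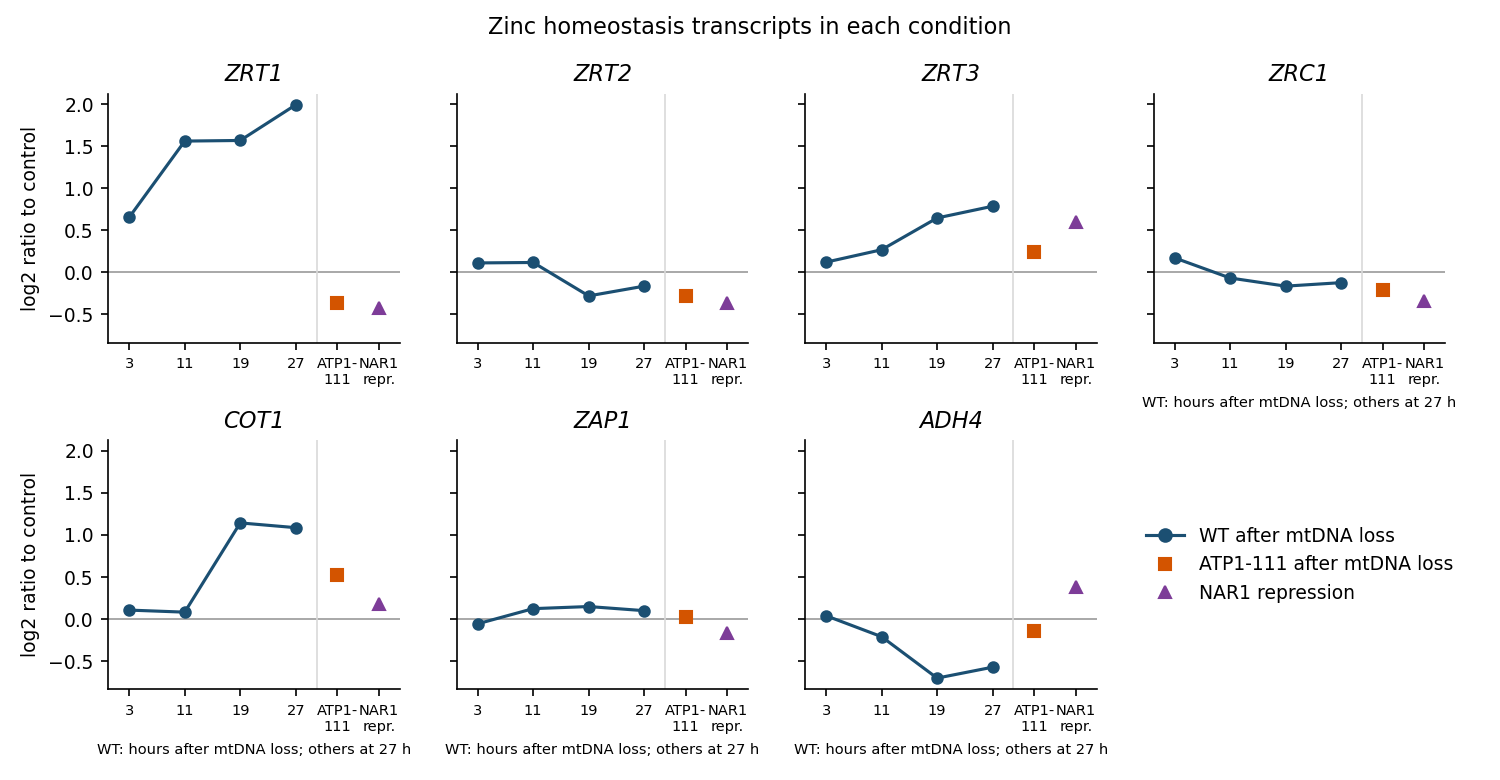
Log2 ratio to control (vertical axis) of each zinc gene in WT cells against hours after mtDNA loss (circles joined by lines), in ATP1-111 cells 27 h after mtDNA loss (squares) and after 27 h of NAR1 repression (triangles). Each point is one authors' average. ZRT1 goes from 0.65 to 1.99 in WT and lies below 0 in both other strains, COT1 lies near 0 at 3 and 11 h and above 1 at 19 and 27 h, and ZAP1 stays near 0.

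ZRT1 had ratios of 1.57, 2.95, 2.96 and 3.97 at 3, 11, 19 and 27 h. The steps were uneven, with 1.87-fold between 3 and 11 h, no step between 11 and 19 h (1.01-fold) and 1.34-fold between 19 and 27 h. At 3 h, when few genes had moved, only 1.58% of all genes stood higher than ZRT1, and the share was 0.569% at 11 h, 1.33% at 19 h and 1.41% at 27 h. The fitted change from 3 to 27 h was 1.21 on the log2 scale (SE 0.26, 95% interval 0.55 to 1.86, adjusted p = 0.0569), just outside the threshold.

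That call depended on the shape of the line and on scaling. Time as log2 hours (1.25, adjusted p = 0.0300), leaving out the 11 h column (1.34, adjusted p = 0.0322) or centring each column on its median (1.26, adjusted p = 0.0493) brought ZRT1 past the threshold, while quantile normalization gave -0.086, and adjusted p over the 11 alternatives ran from 0.0300 to 0.886.

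The COT1 values fell into an early and a late pair. They were 1.08 and 1.06 at 3 and 11 h, within the single-spot SD of no change, and 2.21 and 2.12 at 19 and 27 h. The fitted change was 1.20 (SE 0.32, 95% interval 0.40 to 2.00, adjusted p = 0.0805). ZRC1, the other vacuolar importer, had ratios of 1.13, 0.954, 0.892 and 0.918 over the same times, a fitted change of -0.29 (SE 0.16, 95% interval -0.70 to 0.11, adjusted p = 0.285). The estimates of the related vacuolar importers therefore had opposite signs, with intervals that do not overlap. Neither gene passed, the ZRC1 interval includes 0, and the genes were not tested against each other.

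ZRT3 had ratios of 1.09, 1.20, 1.56 and 1.72, higher at each later time, with a fitted change of 0.71 (SE 0.15, adjusted p = 0.0561). Centring the columns on their medians brought it past the threshold (0.77, adjusted p = 0.0492). ZRT2 had ratios of 1.08, 1.08, 0.823 and 0.892, with a fitted change of -0.37 (SE 0.19, 95% interval -0.84 to 0.10, adjusted p = 0.250), so the plasma membrane uptake pair, ZRT1 and ZRT2, also had opposite signs. ZAP1 had ratios of 0.962, 1.09, 1.11 and 1.07 (fitted change 0.15, 95% interval -0.24 to 0.54). ADH4, next to ZRT1 on the chromosome, had the opposite sign, with ratios of 1.03, 0.865, 0.615 and 0.673 (fitted change -0.70, SE 0.21, adjusted p = 0.103).

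By size, 0 of the 7 genes were at least 2-fold from control in either direction at 3 h, where 1.27% of all genes were. ZRT1 alone was at 11 h (1.85% of all genes), and ZRT1 and COT1 were at 19 h (5.59%) and 27 h (8%). The spread of the whole column grew over the same hours, from a median absolute deviation (scaled as an SD) of 0.222 on the log2 scale at 3 h to 0.414 at 27 h. With all columns brought to one spread, COT1 was no longer 2-fold up at 27 h.

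A test of the fitted WT level at 27 h against no change was added after the values had been seen. In it ZRT1 (2.05, SE 0.16, adjusted p = 0.00161), COT1 (1.20, SE 0.20, adjusted p = 0.0084) and ZRT3 (0.81, SE 0.10, adjusted p = 0.00383) were higher and ADH4 (-0.71, SE 0.13, adjusted p = 0.0116) was lower. So many genes pass this test, 40.5% of all, that 4 of 7 is near the background. Without the 27 h column the level is an extension of the line through the earlier times, and COT1 missed the threshold (1.48, adjusted p = 0.0627). Over the 11 alternatives the adjusted p of ZRT1 ran from 0.000348 to 0.0854 and that of COT1 from 0.0056 to 0.140.

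The next question was whether the zinc genes had the same ratios in ATP1-111 cells, which carry an altered ATP synthase, 27 h after losing mtDNA. ZRT1 had a ratio below control in them, though not past the test against no change. Its ratio was 0.779 against 3.97 in WT, a 5.10-fold gap, and 95.4% of all genes stood higher than ZRT1 in the ATP1-111 column. The other 6 genes had ratios between 0.822 (ZRT2) and 1.44 (COT1).

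ZRT1 was lower in ATP1-111 than the fitted WT level by limma's test (log2 difference -2.41, SE 0.25, 95% interval -3.05 to -1.77, adjusted p = 0.0249), and it was the only one of the 7 past the threshold, where 7.71% of all genes passed. The call was lost without the 19 h column (-2.45, adjusted p = 0.0940) or the 27 h column (-2.53, adjusted p = 0.0651), with equal column spread, with quantile normalization and by ordinary least squares. Over the 11 alternatives the difference stayed between -2.53 and -1.87 and adjusted p ran from 0.00444 to 0.219.

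**Figure D2:**
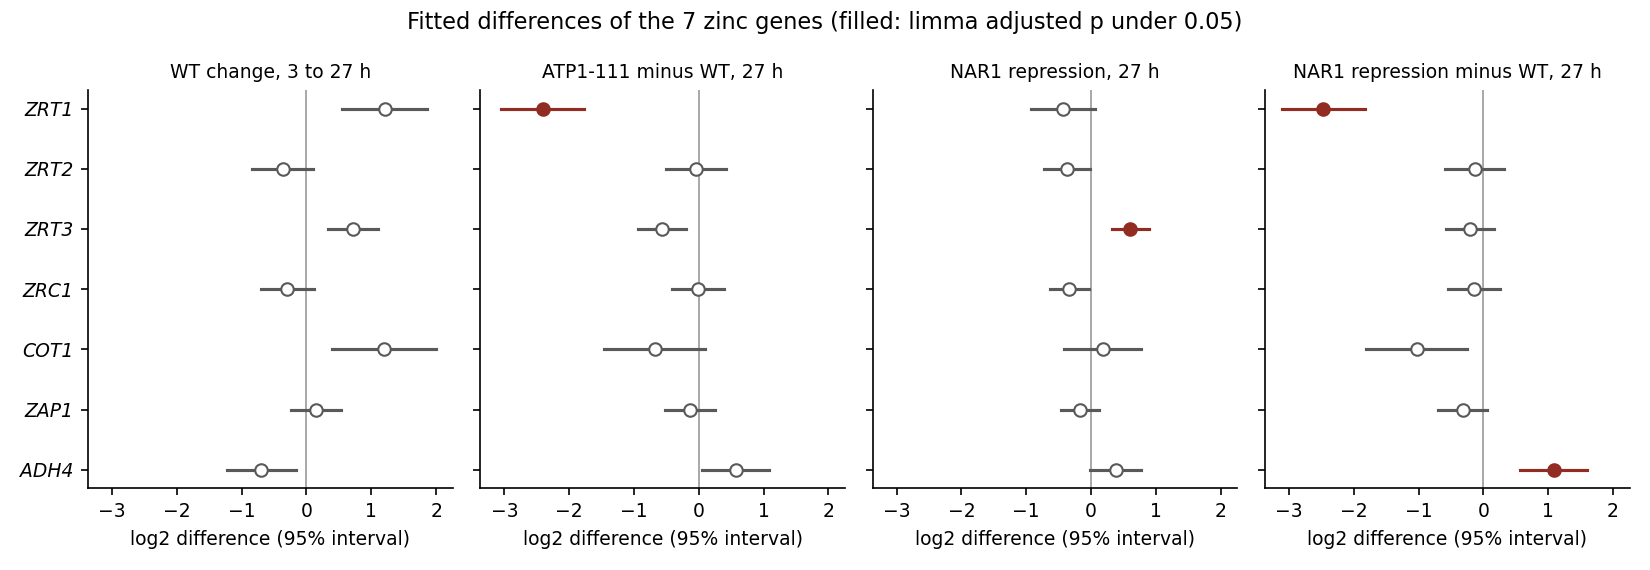
Fitted log2 differences (horizontal axis) with 95% intervals for the 7 zinc genes in 4 comparisons from the limma fit. Filled red points passed an adjusted p of 0.05. ZRT1 lies at -2.41 for ATP1-111 minus WT and -2.47 for NAR1 repression minus WT, and the intervals of ZRT2, ZRC1 and ZAP1 include 0 in both.

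The ZRT3 ratio was 1.19 in ATP1-111 and 1.72 in WT (difference -0.56, SE 0.15, 95% interval -0.94 to -0.19, adjusted p = 0.0803). ADH4 was at 0.906 against 0.673 (difference 0.57, SE 0.20, 95% interval 0.05 to 1.08, adjusted p = 0.142). COT1 was at 1.44 against 2.12 (difference -0.68, SE 0.31, 95% interval -1.46 to 0.10, adjusted p = 0.212). By their ratios these 3 genes lay between no change and the WT value, whereas ZRT1 lay on the other side of no change. The 95% interval of ZRT1 against no change included 0 (-0.85 to 0.13), so that side is not established.

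The ATP1-111 column had a much narrower spread than WT at 27 h, 0.168 against 0.414. Relative to the other genes of its own column COT1 was as prominent in ATP1-111, where 2.26% of genes stood higher, as in WT, where 4.65% did. With columns at equal spread its difference from WT was 0.0036, and with quantile normalization it was 0.13. For ZRT2, ZRC1 and ZAP1 the differences were -0.04 (95% interval -0.50 to 0.41), -0.01 (-0.41 to 0.38) and -0.13 (-0.51 to 0.25). The intervals allow changes of up to about the size seen for ZRT3.

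Against no change, 0 of the 7 genes passed in the ATP1-111 column by limma (0 also at an unadjusted p under 0.05, and 0 and 0 by ordinary least squares), where 0.114% of all genes passed. COT1 was the highest at 1.44 (log2 0.53, SE 0.24) and ZRT1 the lowest at 0.779 (log2 -0.36, SE 0.19). None was at least 2-fold from control, as were 1.01% of all genes.

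The remaining comparison was NAR1 repression, which impairs the making of cytosolic and nuclear iron-sulfur proteins in cells that keep their mtDNA. ZRT3 was higher than in control cells, at a ratio of 1.52. ADH4 was at 1.30 and COT1 at 1.13, while ZAP1 was at 0.890, ZRC1 at 0.792, ZRT2 at 0.774 and ZRT1 at 0.743. No zinc gene was 2-fold from control, as were 5.92% of all genes.

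ZRT3 was the one member past the test against no change (log2 0.60, SE 0.11, 95% interval 0.32 to 0.89, adjusted p = 0.0221), where 24.5% of all genes passed. That call was lost without the WT 19 h column (adjusted p = 0.0508), with equal column spread, with quantile normalization and by ordinary least squares, and adjusted p ran from 0.0164 to 0.130 over the 11 alternatives. Log2 values were -0.43 for ZRT1 (SE 0.19, adjusted p = 0.162), -0.37 for ZRT2 (SE 0.14, adjusted p = 0.108), -0.34 for ZRC1 (SE 0.12, adjusted p = 0.0972) and 0.38 for ADH4 (SE 0.16, adjusted p = 0.134).

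Set against WT at 27 h after mtDNA loss, 2 of the 7 genes differed by limma's test. This is near the background, as 26% of all genes did. ZRT1 was 5.35-fold lower by the measured ratios (fitted log2 difference -2.47, SE 0.25, adjusted p = 0.00573, range over the 11 alternatives 0.00137 to 0.135). ADH4 was higher, with a ratio of 1.30 against 0.673 (1.09, SE 0.20, adjusted p = 0.0212, range 0.0173 to 0.176). COT1 did not pass (-1.03, SE 0.31, adjusted p = 0.0621), but did without the 3 h column (-1.09, adjusted p = 0.0417) or the 11 h column (-1.07, adjusted p = 0.0435). This comparison and that of ATP1-111 use the same fitted WT level, so they are not independent of each other. The NAR1 and WT columns also differ in strain, treatment and control, and these cannot be told apart. Within UCC3970 the change of estradiol and the repression of NAR1 came together and cannot be told apart either.

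Zap1 activates many genes besides the 7, and their values were set beside ZRT1. Of 25 other genes listed as Zap1-activated, 23 could be tested. Over the WT time course 2 rose, FET4 and NRG2, and 1 fell, TSA1, where 7.25% of all genes passed. At 27 h in WT the median log2 ratio of these 23 was 0.04, against -0.06 for all genes, and 3 of them stood 2-fold or more above control and 1 (TSA1) below, as did 8% of all genes in either direction.

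FET4, a low-affinity transporter of iron, zinc and copper whose gene is also controlled by iron and oxygen regulators, had ratios of 1.14, 2.42, 4.94 and 5.63 over the WT time course, the highest of the list from 11 h on. Its fitted change was 2.38 (SE 0.31, adjusted p = 0.0241). Under NAR1 repression its ratio was 0.700 (log2 -0.51, SE 0.23, adjusted p = 0.162 by limma), on the same side of control as ZRT1. In ATP1-111 it was at 1.24 (log2 0.31, SE 0.23, adjusted p = 0.814), on the other side from ZRT1. Neither gene passed the test against no change in either column, so these sides are not established. Of all genes, 5.82% stood higher than FET4 in ATP1-111 and 95.4% higher than ZRT1. The fitted differences from WT were close, at -2.44 for FET4 and -2.41 for ZRT1. NRG2, a transcriptional repressor of glucose-repressed genes, went from 0.905 to 2.83 (fitted change 1.76, SE 0.21, adjusted p = 0.0211). GPG1, which was 2.89 at 27 h, did not pass.

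Several other Zap1-activated genes lacked the high WT ratios of FET4, NRG2 and GPG1. TSA1, a peroxiredoxin, fell from 0.834 to 0.397 (fitted change -1.20, SE 0.22, adjusted p = 0.0407). At 27 h in WT the ratio was 0.912 for ZPS1, 1.21 for YOR387C, 1.07 for VEL1, 0.752 for IZH1 and 0.517 for DPP1, which encodes a vacuolar lipid phosphatase. Of all 23 genes, 13 had a ratio above 1 in that column. In the added test of the WT level at 27 h, 5 of the 23 were higher and 4 lower, near the background of 40.5%.

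**Figure D3:**
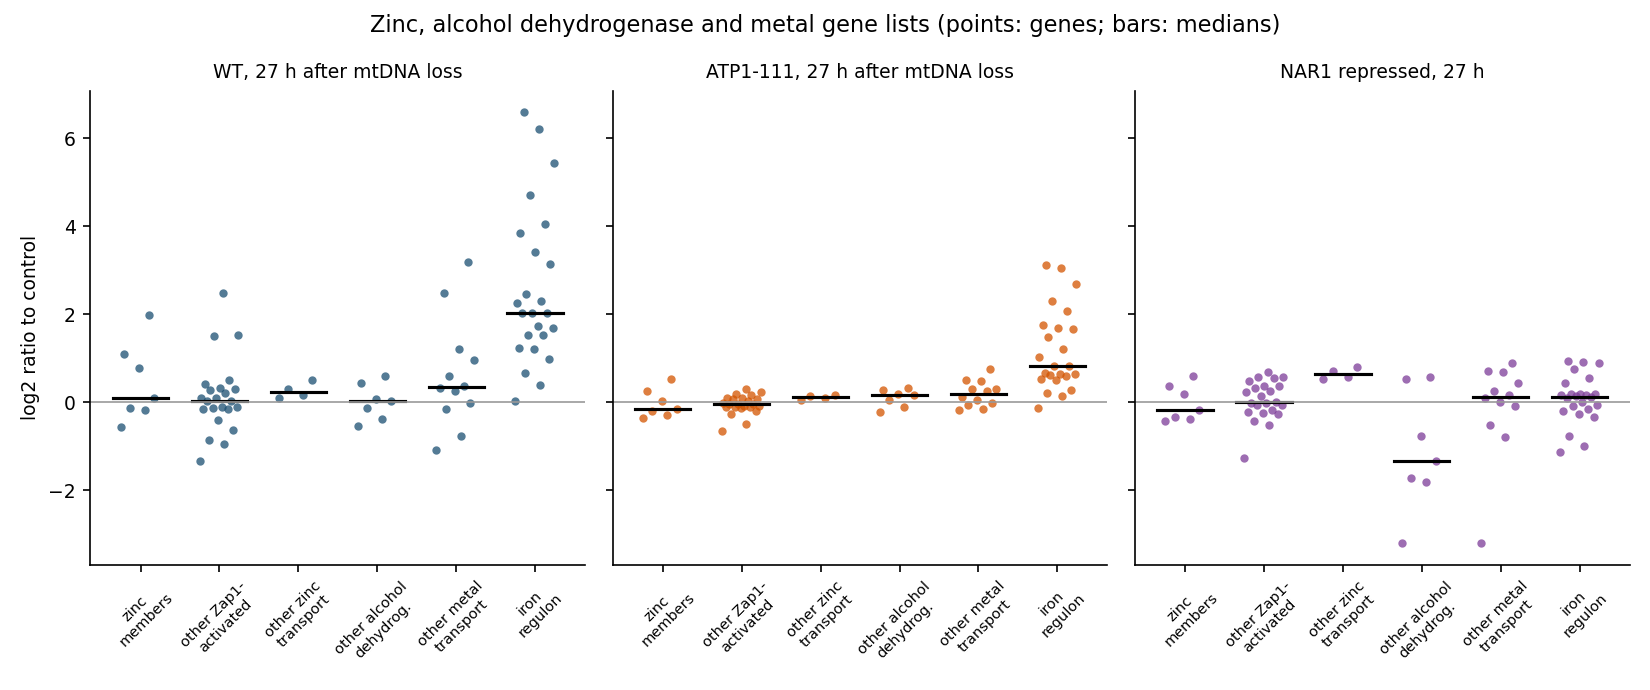
Log2 ratio to control (vertical axis) of every tested gene (points) and the median (bars) of 6 gene lists in WT and ATP1-111 cells 27 h after mtDNA loss and after 27 h of NAR1 repression. The medians of the 7 zinc genes and of the other Zap1-activated genes lie between -0.17 and 0.10 in each panel, the iron regulon median is 2.03 in WT, and the median of the other alcohol dehydrogenases is -1.34 under NAR1 repression.

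COT1 has also been listed among targets of the iron regulators Aft1 and Aft2, so its values were placed beside theirs. The 24 tested genes of that regulon had median log2 ratios of 0.42, 1.04, 2.07 and 2.03 over the WT time course, 0.83 in ATP1-111 and 0.13 under NAR1 repression. COT1 had 0.11, 0.08, 1.14 and 1.09, then 0.53 and 0.18. At 27 h the 3 COT1 ratios were ordered as those medians, but its difference between ATP1-111 and WT did not pass (adjusted p = 0.212) and changed sign with equal column spread or quantile normalization. At 11 h COT1 was near control, when 13 of the 24 were already at least 2-fold higher.

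ADH4 belongs to a second group, the alcohol dehydrogenases. Under NAR1 repression 5 of the 7 other alcohol dehydrogenase genes were lower than control and 1, ADH7, was higher (24.5% of all genes passed in either direction). ADH1, the main zinc enzyme of ethanol production, had a ratio of 0.303 (log2 -1.72, SE 0.14, adjusted p = 0.00405), and ADH3, its mitochondrial relative, 0.586 (-0.77, SE 0.14, adjusted p = 0.019). Zap1 is known to shut off both genes when zinc is scarce. ADH6, an NADPH-dependent enzyme, was the lowest at 0.109 (-3.20, SE 0.11, adjusted p = 0.000465).

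ADH2 (0.284) and ADH5 (0.396) were lower as well, but ADH1 and ADH2 are so alike in sequence that their spots may share signal. ADH4 at 1.30 and ADH1 at 0.303 thus lay on opposite sides of control in that column, though ADH4 did not pass the test against no change. In WT at 27 h both lay below it, at 0.673 and 0.691, and in ATP1-111 they were at 0.906 and 1.04.

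All 4 other genes listed under zinc transport were higher than control under NAR1 repression, as ZRT3 was (24.5% of all genes passed in either direction). MSC2 and ZRG17, which encode partners in a zinc transporter of the endoplasmic reticulum, had ratios of 1.45 (adjusted p = 0.0278) and 1.48 (adjusted p = 0.0247). YKE4, a ZIP family transporter of that organelle, had 1.65 (adjusted p = 0.0139), and IZH3, a membrane protein linked to zinc homeostasis, had 1.75 (adjusted p = 0.0171). In WT at 27 h the same 4 lay between log2 0.11 and 0.51. ZRG17 is also on the list of Zap1-activated genes. Over the array, calls in the test of NAR1 repression fell from 1505 to 177 with equal column spread and to 0 by ordinary least squares.

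ZRT1 and ADH4 are neighbouring protein-coding genes, with MNT2 and VEL1, also listed as Zap1-activated, next to ADH4 and FZF1 and HXK2 on the far side of ZRT1 (gene order of RefSeq assembly R64). None of the other 5 genes shared the high ratio of ZRT1 in WT. At 27 h the ratios in order were 1.07 for VEL1, 0.905 for MNT2, 0.673 for ADH4, 3.97 for ZRT1, 1.01 for FZF1 and 0.819 for HXK2. Under NAR1 repression the order of the pair was reversed, with 1.30 for ADH4 and 0.743 for ZRT1. Neither passed limma's test against no change there (adjusted p = 0.134 and 0.162).

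**Figure D4:**
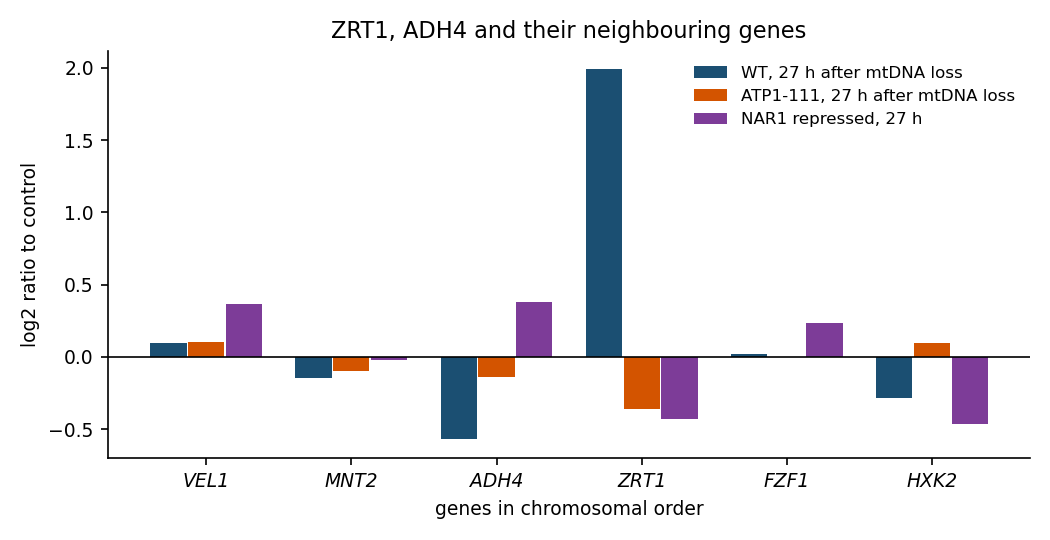
Log2 ratio to control (bars, from 0) of 6 genes in chromosomal order (horizontal axis, not to scale) in WT and ATP1-111 cells 27 h after mtDNA loss and after 27 h of NAR1 repression. ZRT1 stands alone at 1.99 in WT, while its neighbour ADH4 is at -0.57.

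ZRT1 and COT1, the members that were at least 2-fold from control in some condition, were compared with all other genes by the root mean square difference of log2 ratios over the 6 conditions. The genes nearest to ZRT1 were MAL31, a maltose permease (0.374), SPI1, a cell wall protein (0.415), and SRL3 (0.425). MAL31 had ratios of 1.05, 1.92, 3.12 and 3.58 in WT, 0.925 in ATP1-111 and 0.846 under NAR1 repression. Nearest to COT1 were the unnamed frame YBR012C (0.154), HAP1, the haem-responsive transcription factor (0.163), and SGA1, a glucoamylase (0.172). HAP1 had ratios of 1.08, 1.21, 1.89 and 2.42 in WT, 1.30 in ATP1-111 and 1.23 under NAR1 repression. None of the 6 genes is on the lists of zinc genes.

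**Figure D5:**
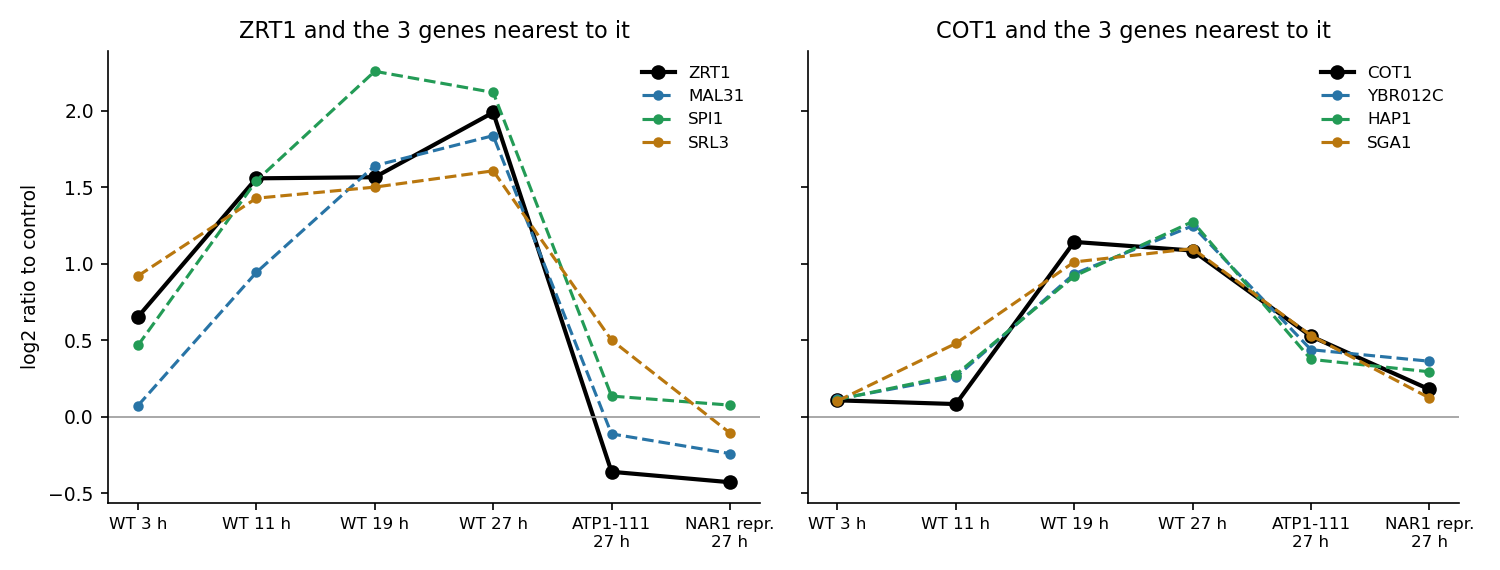
Log2 ratio to control (vertical axis) over the 6 conditions (horizontal axis) for ZRT1 and COT1 (black) and the 3 genes nearest to each by root mean square difference (dashed). The 3 genes near ZRT1 differ from it by 0.374 to 0.425 and those near COT1 by 0.154 to 0.172.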

How the data were processed

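RNA from yeast cultures was measured on 2-colour arrays in 6 conditions, each its own group of 1 averaged column. The deposited values are linear ratios of treated over control cells, averaged by the authors over 5 or 6 arrays, per the labels. Per the labels' protocols, RNA was extracted with acid phenol and oligo(dT)-primed aminoallyl cDNA was coupled to Cy3 or Cy5. The sources used here do not give the scanner, the background correction, the normalization or how the average was taken, and weak spots cannot be told from bright ones, so a ratio of a dim spot may understate a change. The direction was taken from the sample titles.

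From these ratios, log2 was taken, 28 control rows were left out and duplicate spots of 13 genes were averaged, leaving 6198 reading frames with a value and 6151 with values in all 6 columns. Symbols came from the RefSeq table (R64), which matched 5698 frames. The limma 3.58.1 fit (R 4.3.3) estimated the WT slope, the WT level at 27 h and the levels of ATP1-111 and NAR1 repression, with 2 residual and 3.35 prior degrees of freedom. Changes with time are given over 24 h. The p-values treat columns as samples.

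Members, gene lists and tests were chosen with earlier results of these data known. All 7 members were named, with the 3 nearest genes of each member at least 2-fold from control. List genes were to be named when past a test or extreme in WT 27 h or NAR1 repression, and were given here where a result of the zinc genes turns on them. ZPS1, YOR387C, VEL1, IZH1, MNT2, FZF1 and HXK2 were named after their values were seen. Alternatives changed the time scale, moderation, centring, column spread, normalization, missing values and WT columns. Promoter and protein comparisons were not made here.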

Additional observations from a re-analysis of the deposited data

Results flagged for a closer look

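The response to mtDNA loss at 27 h differed between strains, by limma's test of ATP1-111 minus the fitted WT level, for 11 of 62 tested genes on the zinc, alcohol dehydrogenase and metal lists, where 7.71% of all genes passed. Of the 24 genes of the iron regulon, of which only SMF3 is among the 62, 12 passed as lower. ZRT1 was lower in ATP1-111 by a log2 difference of -2.41. FET4 at -2.44, NRG2 at -1.33 and the alcohol dehydrogenase gene ADH7 at -0.81 were lower as well, as was PCA1, a cadmium-exporting ATPase, at -2.36. The vacuolar iron importer CCC1 was higher at 0.91. The Zap1-activated genes TSA1 and MCD4 were higher at 1.20 and 0.77, and so were the zinc enzyme genes PHO8 at 0.85, PMI40 at 1.55 and MET6 at 2.20.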

How the results depend on the processing

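Of the 7 zinc genes, the number that passed the WT slope test as higher went from 0 to 1 with log2 hours and 2 with columns centred on their medians. Ordinary least squares, equal column spread and quantile normalization each left 0 genes past the tests of ATP1-111 minus WT (1 lower in the main analysis), of NAR1 repression (1 higher) and of NAR1 repression minus WT (1 higher and 1 lower). In the added test of the WT level at 27 h, ordinary least squares left 0 higher and 0 lower (3 and 1), and equal spread or quantile normalization left 0 lower. By size, 1.5-fold in place of 2-fold gave 1 higher gene at 3 h and 1 under NAR1 repression, 3 higher in place of 2 at 19 h and at 27 h (ZRT3 added), and 1 lower at 19 h, and equal column spread left 1 higher at 27 h. Leaving out each WT column in turn gave 0 to 1 higher for the slope, 0 to 1 lower for ATP1-111 minus WT, 0 to 1 higher for NAR1 repression, and 1 to 2 lower for NAR1 repression minus WT.

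Signs turned for ZRT1 in the slope (-0.086 with quantile normalization) and for COT1 in ATP1-111 minus WT (0.0036 with equal spread, 0.13 with quantile normalization), neither past the threshold there. Leaving out each WT column gave -0.036 (without 3 h) to 0.31 for the ZAP1 slope. It gave -0.14 to 0.13 for ZRT2 and -0.059 to 0.15 for ZRC1 in ATP1-111 minus WT, and -0.23 to 0.040 and -0.19 to 0.020 in NAR1 repression minus WT, each positive only without 27 h. Without the 27 h column, the WT level at 27 h is an extension of the line through the earlier times. The cause of the turned signs was not tested.

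The alternatives that lost calls of zinc genes lost calls over the whole array too. For ATP1-111 minus WT, limma called 474 of all genes in the main analysis, 31 with equal spread, 0 with quantile normalization (1147 at an unadjusted p under 0.05) and 0 without 19 h (1427), and ordinary least squares called 0 (1181). Calls by limma were 137 with log2 hours, 84 without 27 h, 269 without 11 h and 832 without 3 h. For the slope the counts were 446 in the main analysis and 0 to 545 over the alternatives, for NAR1 repression 1505 and 0 to 1982, for NAR1 repression minus WT 1600 and 0 to 1840, for the ATP1-111 level 7 and 0 to 213, and for the WT level 2490 and 0 to 2781.

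No paired analysis was possible because each condition is one averaged column and the labels give no replicate numbers. Signal over background was not used here, so which ratios come from dim spots cannot be said.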

Other observations

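Of 14 genes for zinc-dependent enzymes, 7 passed limma's test as lower under NAR1 repression and 1 as higher (24.5% of all genes passed in either direction), with a median log2 ratio of -0.68 against 0.03 for all genes. The 7 include the alcohol dehydrogenase genes ADH1, ADH2 and ADH3 described above. FBA1, the glycolytic aldolase, had a ratio of 0.456 and PHO8, the vacuolar alkaline phosphatase, 0.424, while NCE103, the carbonic anhydrase, was at 2.42. In WT at 27 h the median was -0.44 against -0.06 for all genes, and 6 of the 14 were lower and 1 higher in the added test of the WT level (40.5% of all genes passed). MET6, the methionine synthase, had the lowest ratio of the 14 there, at 0.223. In the slope test 1 of the 14 passed, where 7.25% of all genes did. It was PMI40, a mannose-phosphate isomerase, with ratios of 0.811, 0.627, 0.355 and 0.263. Its ratio was 0.757 in ATP1-111.

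Among 12 other genes linked to metal transport, 4 rose over the WT time course (SMF3, CTR2, PCA1 and FET4, which is also on the Zap1 list) and CCC1 fell, where 7.25% of all genes passed. PCA1 reached a ratio of 9.15 at 27 h against 1.68 in ATP1-111. SMF1, a manganese transporter, was at 0.585 in WT at 27 h and 1.86 under NAR1 repression, and PHO84, a phosphate transporter that also carries metals, was at 1.25 and 0.109.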
